A study of Mus musculus with 6 samples.

Results

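The 9 genes described here mark the proximal tubule of the kidney and its reabsorptive and metabolic work. They are Lrp2, Cubn, Hnf4a, Aqp1, Miox, Gatm, Fbp1, Pck1 and Dpep1, taken by symbol from the 20138 genes of the authors' table, and each of them was found there once. Kidneys were compared between 3 Pkd2-miR-214-KO mice and 3 Pkd2-KO mice at postnatal day 35, and RNA was sequenced from frozen kidneys. The Pkd2-miR-214-KO mice carried Pkhd1Cre, Pkd2 F/F and miR-214null, and the Pkd2-KO mice carried Pkhd1Cre and Pkd2 F/F. Both genotypes therefore share the Cre-driven loss of floxed Pkd2 in cells in which the Pkhd1 promoter is active, and no kidney with intact Pkd2 belongs to the comparison. Pkd2 encodes polycystin-2, a cation channel of the cilium, and miR-214 is a microRNA made from a precursor called Dnm3os. The labels do not say whether the miR-214 null allele is limited to certain cells, and they do not give the sex of the mice.

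The proximal tubule takes back most of what the glomerulus filters. Megalin and cubilin, the products of Lrp2 and Cubn, are large receptors of its apical membrane that capture filtered proteins and vitamin carriers for endocytosis. The same cells make glucose from lactate, glutamine and glycerol, break down inositol, start creatine synthesis and carry peptidases on a dense brush border. The nuclear receptor encoded by Hnf4a keeps many of these genes active in mature proximal tubule cells. Proximal tubule genes are known to be lost when tubules are injured or replaced by cysts.

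None of the 9 genes passed the threshold of an adjusted p under 0.05 between the genotypes. By the authors' deposited table, of the 9 genes 8 had a log2 fold below 0, that is lower in Pkd2-miR-214-KO, and Pck1 was above 0. Their median was -0.35, against a median of 0 over all 20138 genes, of which 48.2% were below 0. The calls are those of the authors' likelihood ratio test in edgeR, by which 25 genes, or 0.124% of all, passed in either direction. Without adjustment 1 of the 9, Gatm, had a p under 0.05 and was lower, against 1.71% of all genes that were lower at that level and 3.10% that were higher. Each fold is given with an approximate standard error (SE), computed as its absolute value over the root of the likelihood ratio. Values per library were not analysed here, so the depth is unknown and the spread between mice enters only through that SE. In whole kidneys, fewer proximal tubule cells and less RNA per cell cannot be told apart.

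**Figure D1:**
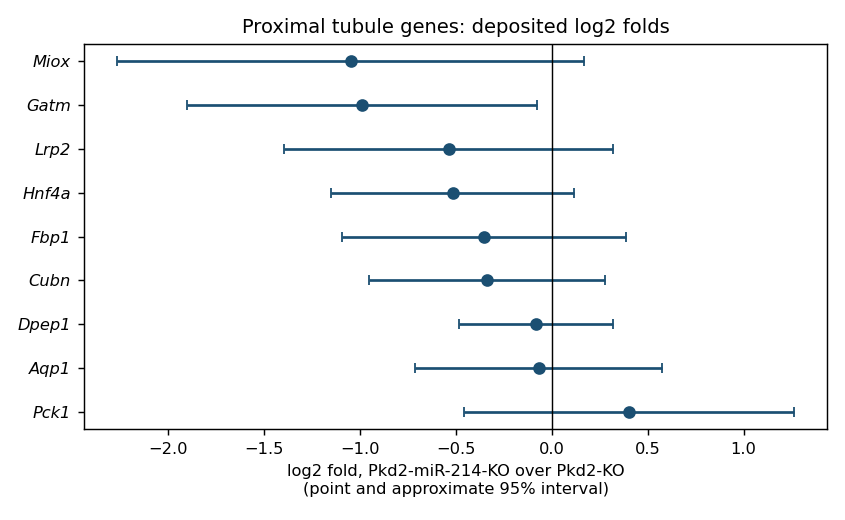
Deposited log2 fold of each of the 9 proximal tubule genes (points) with the approximate 95% interval (bars), Pkd2-miR-214-KO over Pkd2-KO, n = 3 mice per genotype. The interval lies wholly below 0 for Gatm (-1.90 to -0.07) and holds 0 for the other 8 genes.

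The table's genes were first checked against the labels. Mir214 had a log2 fold of -7.62 ± 1.08 (SE, adjusted p = 1.34e-08, edgeR) in the authors' deposited table, and this gene fixes the direction of all folds, so it is no independent check of the labels. Pkd2 had a log2 fold of -0.11 ± 0.23 (adjusted p = 1, edgeR) in the authors' deposited table, with the gene targeted in both genotypes. Defining markers of kidney segments were present, with a mean log2 CPM (the count scaled to library size) of 11.3 for the phosphate carrier gene Slc34a1 and 11.4 for the thick ascending limb gene Umod in the authors' deposited table. Xist, which is expressed from an inactive X chromosome, had a log2 fold of 10.21 ± 2.36 (adjusted p = 0.0168, edgeR) in the authors' deposited table. The Y-linked genes Kdm5d, Uty, Ddx3y and Eif2s3y had folds between -0.66 and -0.14 with SEs of 1.40 to 1.66, and none of them passed.

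All 9 genes were well expressed, with a mean log2 CPM between 6.88 for Dpep1 and 11.1 for Pck1 in the authors' deposited table. Divided by the exon length of each gene in GENCODE M21 (GRCm38, the assembly of mm10, from which all gene positions are taken), the mean levels ran from 632 CPM per kb for Pck1 and 561 CPM per kb for Miox to 15.2 CPM per kb for Cubn. Between them lay Aqp1 at 352, Fbp1 at 327, Gatm at 282, Hnf4a at 101, Lrp2 at 63.0 and Dpep1 at 47.3 CPM per kb. The receptor genes Lrp2 and Cubn, with exons of 16701 and 14935 bases, thus stood low per length. So did Dpep1, below Lrp2, with exons of only 2486 bases. No spread over mice belongs to these levels, so neighbours in this order are not shown to differ. A level per genotype, called the implied level, was also computed from each mean and fold, as an approximation that weights both genotypes equally. Summed over the 9 genes they came to 6605 CPM in Pkd2-miR-214-KO and 8002 CPM in Pkd2-KO.

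**Figure D2:**
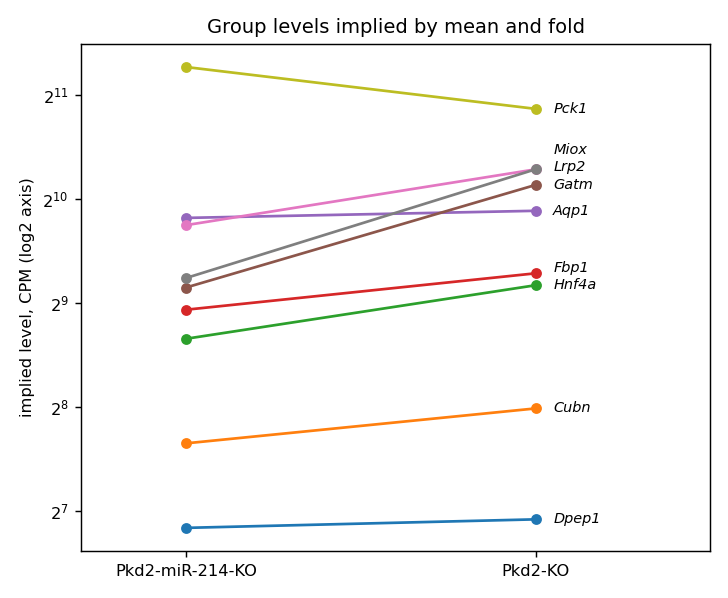
Level of each of the 9 genes in CPM on a log2 axis, computed from the deposited mean and fold, in Pkd2-miR-214-KO and Pkd2-KO kidneys. Miox and Gatm have the steepest lines, with 604 and 567 CPM in Pkd2-miR-214-KO against 1247 and 1124 CPM in Pkd2-KO, and Pck1 alone is higher in Pkd2-miR-214-KO.

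The endocytic receptors were both below 0 without passing. Lrp2, on chromosome 2 (69424340 to 69586065, minus strand, 79 exons in the longest transcript), had implied levels of 859 CPM in Pkd2-miR-214-KO and 1247 CPM in Pkd2-KO. The authors' deposited table gives a log2 fold of -0.54 ± 0.44 (adjusted p = 1, edgeR), and the approximate 95% interval ran from -1.39 to 0.32. Cubn, on the same chromosome (13276338 to 13491813, minus strand, 67 exons), had implied levels of 201 CPM in Pkd2-miR-214-KO and 253 CPM in Pkd2-KO. Its log2 fold was -0.34 ± 0.31 (adjusted p = 1, edgeR) in the authors' deposited table, with an interval of -0.95 to 0.28. Both intervals hold no difference, and they reach down to 0.381 of the Pkd2-KO level for Lrp2 and 0.517 for Cubn. Cubilin has no membrane anchor of its own and needs amnionless, the product of Amn, to reach the cell surface. Amn had a log2 fold of -0.83 ± 0.41 (p = 0.0431 without adjustment, adjusted p = 1, edgeR) in the authors' deposited table, the smallest p among the 20 partner and trafficking genes examined.

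Of these 20 genes 11 were below 0 and 9 above, with a median of -0.03, 0 past the threshold by edgeR and only Amn under 0.05 without adjustment. The chaperone gene of megalin, Lrpap1, had a log2 fold of -0.31 ± 0.25, the proton pump subunit gene Atp6v0a4 0.32 ± 0.27 and the early endosome gene Rab5a 0.25 ± 0.23 in the authors' deposited table. Dab2, the adaptor that links megalin to clathrin, was at 0.06 ± 0.26 and the endosomal chloride exchanger gene Clcn5 at -0.20 ± 0.22 in the authors' deposited table. Apart from Amn, the partner and trafficking genes had folds closer to 0 than both receptors, and the difference between receptors and machinery was not tested.

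Because miR-214 is the RNA missing from the Pkd2-miR-214-KO mice, the 3' untranslated regions of the 9 genes were searched for its sites. The mature miR-214-3p of RefSeq (GRCm38.p6, chr1:162223438-162223459, plus strand) is shown with bases 2 to 8, the seed, in capitals. The only site among the 9 genes, in Lrp2 at base 299 of its longest annotated region of 1305 bases, is shown with the 7 pairing bases in capitals.
miR-214-3p: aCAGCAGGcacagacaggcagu
Lrp2 site: tgagagtgCCTGCTGagtgggg
A site pairing with bases 2 to 8, or with bases 2 to 7 and followed by A, was thus held by 1 of the 9 genes, against 29.4% of 16900 genes with an annotated region. The median length was 753 bases for the 9 genes and 1041 bases for all. The log2 fold of Lrp2, the gene with the site, was -0.54 with an interval of -1.39 to 0.32, so its direction is not established. The part of miR-214 in that fold was not tested. A match of letters is not evidence of binding.

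Hnf4a, the nuclear receptor, had implied levels of 403 CPM in Pkd2-miR-214-KO and 576 CPM in Pkd2-KO. Its fold on the log2 scale in the authors' deposited table was -0.51 ± 0.32 (p = 0.111, adjusted p = 1, edgeR), and its interval ran from -1.15 to 0.12. The gene lies on chromosome 2 (163506808 to 163572910, plus strand) and is overlapped by Hnf4aos on the opposite strand. The authors' deposited table lists Hnf4aos at a mean log2 CPM of 2.92 with a log2 fold of -0.11 ± 0.43, and reads of the overlap can be told apart only if counting used strand, which is not given in the sources used here. Of 12 other transcription factors and coactivators of the proximal tubule 8 were below 0 and 4 above, with a median of -0.06 and 0 past the threshold by edgeR. Nr1h4, the bile acid receptor, had the smallest p, with a log2 fold of -0.58 ± 0.28 (p = 0.0434 without adjustment, adjusted p = 1, edgeR) in the authors' deposited table, the only p under 0.05 of this list.

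The enzymes of glucose synthesis did not share a direction. Pck1 encodes the cytosolic carboxykinase that commits oxaloacetate to glucose, and its implied level was 2466 CPM in Pkd2-miR-214-KO and 1866 CPM in Pkd2-KO. The authors' deposited table puts its log2 fold at 0.40 ± 0.44 (adjusted p = 1, edgeR), and its interval ran from -0.46 to 1.26. Fbp1 encodes the bisphosphatase that acts later in the same route, and its implied level was 489 CPM in Pkd2-miR-214-KO and 623 CPM in Pkd2-KO. Its log2 fold was -0.35 ± 0.38 (adjusted p = 1, edgeR) in the authors' deposited table, with an interval of -1.09 to 0.39. The intervals of Pck1 and Fbp1 overlap, so their opposite signs do not show that they differed. Pck1 lies on chromosome 2 (173153048 to 173159273, plus strand) and Fbp1 on chromosome 13 (62864753 to 62888282, minus strand).

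Among 19 further genes of glucose, fructose and ammonia metabolism 12 were below 0 and 7 above, with a median of -0.06 and 0 past the threshold by edgeR. G6pc, the phosphatase that releases glucose from the cell, had implied levels of 345 CPM in Pkd2-miR-214-KO and 179 CPM in Pkd2-KO. Its fold of 0.95 ± 0.41 on the log2 scale (p = 0.0216 without adjustment, adjusted p = 0.789, edgeR) in the authors' deposited table had the only p under 0.05 of this list. The glycerol phosphate dehydrogenase gene Gpd1 had a log2 fold of -0.71 ± 0.44, the malate dehydrogenase gene Mdh2 -0.24 ± 0.25 and the glutamate dehydrogenase gene Glud1 0.25 ± 0.29 in the authors' deposited table. Pcx, whose product feeds oxaloacetate to Pck1, had -0.31 ± 0.37 in the authors' deposited table.

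Genes typical of liver had positive folds beside these values, and liver cells also express Pck1, Fbp1, Hnf4a and G6pc. Of 16 hepatocyte markers 16 were above 0, with a median log2 fold of 2.53, 12 had a p under 0.05 without adjustment and 0 passed by edgeR. Their summed implied level was 746 CPM in Pkd2-miR-214-KO and 220 CPM in Pkd2-KO. In Pkd2-KO much of that sum came from Fga (59.5 CPM), Ttr (55.6 CPM) and Fgg (45.6 CPM). The log2 folds of these genes were smaller than the list's median, at 0.95 ± 0.36, 0.35 ± 0.38 and 0.93 ± 0.45. Albumin (Alb) alone accounted for 274 CPM in Pkd2-miR-214-KO and 2.76 CPM in Pkd2-KO, at a log2 fold of 6.64 ± 2.05 (adjusted p = 0.226, edgeR) in the authors' deposited table. Apoa1, Apoa2, Ahsg and Hpx had folds of 5.92 ± 1.63, 2.93 ± 0.85, 6.64 ± 1.98 and 4.67 ± 1.39. Their adjusted p lay between 0.136 and 0.207 (edgeR) in the authors' deposited table. The lowest mean log2 CPM in the list was 0.99, for Tat, so no marker was at 0 in all libraries. In Pkd2-KO alone some were near the floor, with implied levels of 0.135 CPM for Tat, 0.297 for Apoa1 and 0.493 for Ahsg. The part of liver RNA in the folds of Pck1 and G6pc was not tested.

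Miox and Gatm had the largest folds of the 9 genes. Miox encodes the oxygenase that opens the ring of inositol and is expressed almost only in the proximal tubule, and its implied level was 604 CPM in Pkd2-miR-214-KO and 1247 CPM in Pkd2-KO. The authors' deposited table gives a log2 fold of -1.05 ± 0.62 (p = 0.0917, adjusted p = 1, edgeR), that is 0.484 of the Pkd2-KO level with an interval of 0.209 to 1.12. Gatm encodes the mitochondrial amidinotransferase that makes guanidinoacetate, the precursor of creatine, and its implied level was 567 CPM in Pkd2-miR-214-KO and 1124 CPM in Pkd2-KO. Its log2 fold was -0.99 ± 0.47 (p = 0.0341 without adjustment, adjusted p = 0.915, edgeR) in the authors' deposited table, 0.505 of the Pkd2-KO level with an interval of 0.268 to 0.950. Ranked by p, Gatm stood at place 751 of the 20138 genes and Miox at place 1604. Both were also among the more variable genes. The SE of Miox exceeded that of 99.0% and the SE of Gatm that of 96.3% of genes within 0.5 of their mean log2 CPM. Miox lies on chromosome 15 (89334398 to 89337015, plus strand) and Gatm on chromosome 2 (122594467 to 122611303, minus strand).

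**Figure D3:**
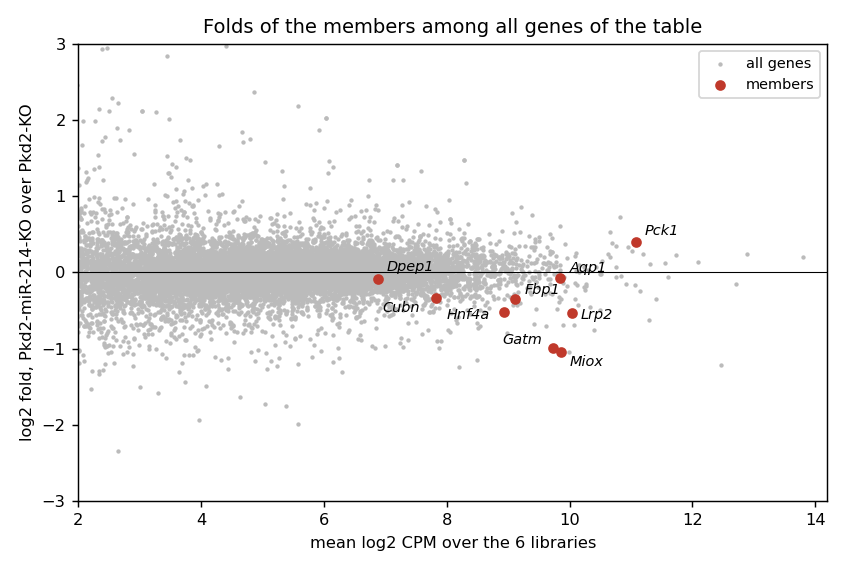
Deposited log2 fold against mean log2 CPM for all genes with a mean log2 CPM of at least 2 and a fold within the axis (grey) and for the 9 proximal tubule genes (red). Miox and Gatm lie at the lower edge of the cloud at a mean log2 CPM near 9.85 and 9.72, and Pck1 lies above 0 at 11.1.

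Of 22 other enzyme genes for inositol, creatine and amino acids 14 were below 0 and 8 above, with a median of -0.07 and 0 past the threshold by edgeR. Without adjustment 2 were lower and 2 higher at a p under 0.05. Acy3, an aminoacylase, had a log2 fold of -0.98 ± 0.33 (adjusted p = 0.330, edgeR) and Isyna1, which makes inositol phosphate from glucose phosphate, -0.47 ± 0.23 (adjusted p = 1, edgeR) in the authors' deposited table. Hpd, of tyrosine breakdown, had 1.39 ± 0.45 (adjusted p = 0.288, edgeR) and Gldc, of glycine breakdown, 0.89 ± 0.43 (adjusted p = 0.962, edgeR) in the authors' deposited table. Hpd and Gldc are also strongly expressed in liver, whose markers are given above.

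The start regions of 4 genes were compared by letters, Gatm and Miox with the lowest folds of the 9 genes, Pck1 with the highest, and G6pc with the smallest p of the glucose, fructose and ammonia list. The windows come from RefSeq (GRCm38.p6), run from 250 bases before to 50 bases after each start, and are printed in the direction of the gene. They are Gatm at chr2:122611228-122611527 (minus strand), Miox at chr15:89334223-89334522 (plus), Pck1 at chr2:173152823-173153122 (plus) and G6pc at chr11:101367466-101367765 (plus). Capitals mark TATAAA in Miox and G6pc and ACGTCA, part of the cyclic AMP response element, in Pck1.
Gatm: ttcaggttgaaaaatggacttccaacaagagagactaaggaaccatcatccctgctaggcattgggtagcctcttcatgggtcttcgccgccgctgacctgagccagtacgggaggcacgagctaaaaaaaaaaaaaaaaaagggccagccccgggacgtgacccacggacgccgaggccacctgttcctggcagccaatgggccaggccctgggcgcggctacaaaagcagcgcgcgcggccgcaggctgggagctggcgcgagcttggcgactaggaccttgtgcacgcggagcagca
Miox: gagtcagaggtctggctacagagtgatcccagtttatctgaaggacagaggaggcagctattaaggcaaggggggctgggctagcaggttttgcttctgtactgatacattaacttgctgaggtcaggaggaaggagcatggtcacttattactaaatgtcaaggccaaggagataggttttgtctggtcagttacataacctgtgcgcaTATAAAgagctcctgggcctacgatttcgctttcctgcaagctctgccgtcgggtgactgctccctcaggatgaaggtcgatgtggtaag
Pck1: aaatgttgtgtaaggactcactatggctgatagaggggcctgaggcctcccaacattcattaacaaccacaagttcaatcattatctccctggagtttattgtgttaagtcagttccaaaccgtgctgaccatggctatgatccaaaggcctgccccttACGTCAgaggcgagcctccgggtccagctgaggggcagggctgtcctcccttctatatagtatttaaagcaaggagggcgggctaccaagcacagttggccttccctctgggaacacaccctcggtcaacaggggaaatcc
G6pc: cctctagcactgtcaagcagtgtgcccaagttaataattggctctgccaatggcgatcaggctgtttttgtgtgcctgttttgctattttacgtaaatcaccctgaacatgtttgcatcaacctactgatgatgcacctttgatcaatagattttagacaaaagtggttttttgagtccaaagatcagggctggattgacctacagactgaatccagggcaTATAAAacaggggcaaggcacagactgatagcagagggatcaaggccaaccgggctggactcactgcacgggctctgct
Among the 10 start regions of the 9 genes, of which Hnf4a has a pair, 0 held the HNF4 cores CAAAGTCCA or CAAAGGTCA on either strand. These letters occur in 0.475% and 0.478% of all 32851 windows of the same length, and no match says only that these letters are not in the window. TATAAA was found in 1 of the 10, that of Miox at base 211, against 13.6% of all windows. ACGTCA was found in 1, that of Pck1 at base 160, against 7.51% of all windows. The G6pc window held TATAAA at base 222. The Gatm window held none of the 4 motifs, and 60.7% of its bases were G or C, against 50% in Miox, 52% in Pck1 and 46.7% in G6pc.

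Aqp1 and Dpep1 had folds closest to 0. Aqp1 encodes the water channel of the proximal tubule and thin descending limb, and its implied level was 902 CPM in Pkd2-miR-214-KO and 946 CPM in Pkd2-KO. Its fold on the log2 scale in the authors' deposited table was -0.07 ± 0.33 (adjusted p = 1, edgeR), and the interval of -0.71 to 0.58 holds falls and rises alike. Aqp1 is also made by endothelial and red blood cells. Of 10 endothelial markers 8 were below 0 with a median of -0.19, and of 8 red cell markers 7 were above 0 with a median of 1.66, with 0 of either list past the threshold by edgeR. At p under 0.05 without adjustment 1 endothelial gene was lower, Plvap at -0.51 ± 0.25, and 4 red cell genes were higher, among them the globin gene Hbb-bt at 2.03 ± 0.87 in the authors' deposited table. The summed implied level of the red cell list was 1031 CPM in Pkd2-miR-214-KO and 363 CPM in Pkd2-KO, and its lowest member by mean log2 CPM was Rhag at -3.38. The part of these cells in the Aqp1 value was not tested. Aqp1 lies on chromosome 6 (55336432 to 55348555, plus strand).

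Dpep1 encodes a dipeptidase that is anchored to the brush border and cleaves cysteinylglycine from glutathione breakdown. Its implied level was 114 CPM in Pkd2-miR-214-KO and 121 CPM in Pkd2-KO, and the authors' deposited table gives a log2 fold of -0.08 ± 0.20 (adjusted p = 1, edgeR). Its interval, -0.48 to 0.32, was the narrowest of the 9 genes. Dpep1 lies on chromosome 8 (123186242 to 123201812, plus strand) inside a longer annotated gene, Gm20388, of the same strand. Of 20 other brush border enzyme and scaffold genes 16 were below 0 and 4 above, with a median of -0.29 and 0 past the threshold by edgeR. The meprin genes Mep1b and Mep1a had folds of -1.31 ± 0.66 (p = 0.0485 without adjustment) and -0.69 ± 0.41 in the authors' deposited table. With only genes of a mean log2 CPM of at least 0 the list's median was -0.30. The paralogs of Dpep1 were counted in this list, among the 4 genes above 0, and had low levels. Their folds were 1.22 ± 0.48 for Dpep2 (p = 0.0104 without adjustment, mean log2 CPM 2.14) and 2.42 ± 0.98 for Dpep3 (p = 0.0136, mean log2 CPM -1.29) in the authors' deposited table. Both had an adjusted p of 0.602 or more (edgeR).

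Carriers of the proximal tubule were the related list with the lowest median. Of 24 genes 23 were below 0, with a median log2 fold of -0.44 and 0 past the threshold by edgeR, and 4 had a p under 0.05 without adjustment. These were the urate carrier gene Slc22a12 (-1.24 ± 0.38), the phosphate carrier gene Slc34a3 (-1.16 ± 0.42), the sodium-proton exchanger gene Slc9a3 (-0.80 ± 0.31) and the sulfate carrier gene Slc26a1 (-0.66 ± 0.31) in the authors' deposited table. Their summed implied level was 7136 CPM in Pkd2-miR-214-KO and 9444 CPM in Pkd2-KO. The early proximal tubule carrier genes Slc5a2 and Slc34a1, named after their values were seen, had log2 folds of -0.67 ± 0.41 and -0.62 ± 0.49 in the authors' deposited table. They do not stand for all early carriers. The folds of the list ran from -1.24 for Slc22a12 to 0.0007 for Slc4a4, with Slc5a12 at -0.09 ± 0.39. Whether the carriers differ from the 9 genes or from the endocytic machinery was not tested.

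**Figure D4:**
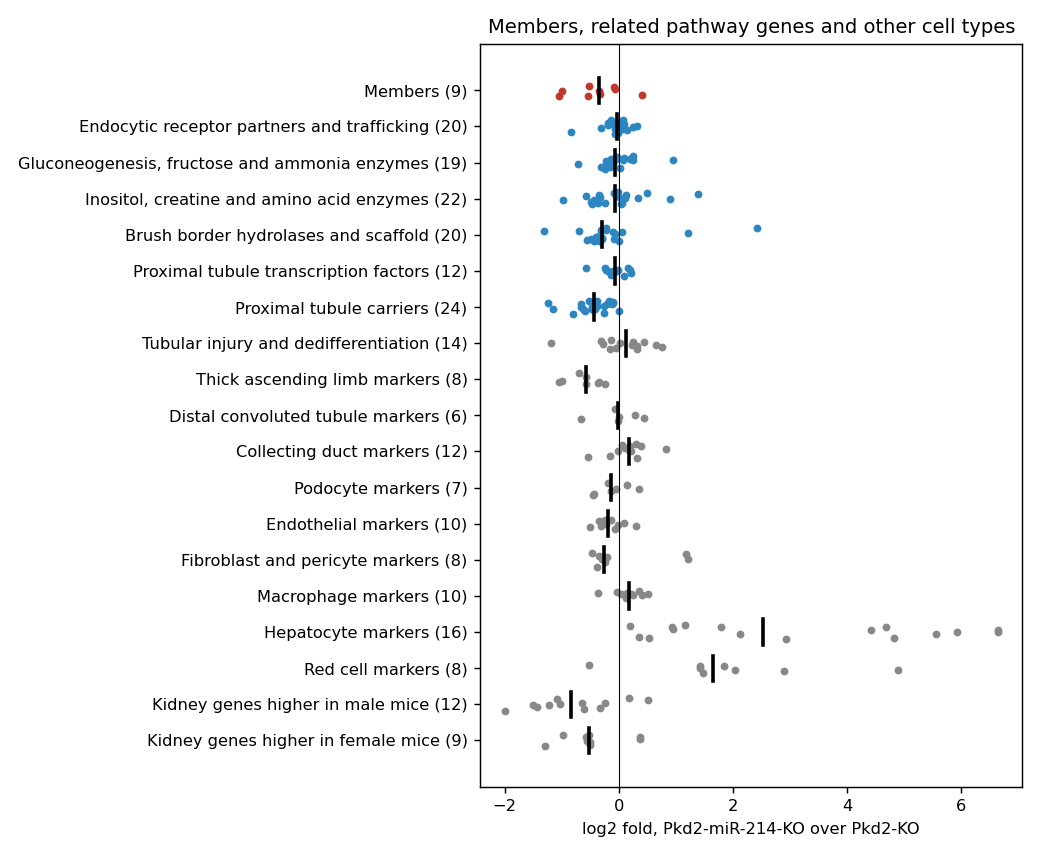
Deposited log2 folds of the 9 proximal tubule genes (red), 6 related proximal tubule lists (blue) and other lists (grey), 1 point per gene, with the median as a black bar and the number of genes measured in brackets. The carriers have a median of -0.44 and the endocytic partners of -0.03, while hepatocyte and red cell markers lie mostly to the right of 0.

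Markers of other kidney cells gave a mixed frame for these values, with 0 genes past the threshold by edgeR in each list. Thick ascending limb markers had 8 of 8 folds below 0 (median -0.58, 3 lower at p under 0.05 without adjustment), with -0.99 ± 0.38 for Ppp1r1a and -1.05 ± 0.45 for Egf in the authors' deposited table. Collecting duct markers had 9 of 12 above 0 (median 0.19), with Atp6v0d2 at 0.82 ± 0.26 (p = 0.00135, adjusted p = 0.232, edgeR) in the authors' deposited table as the 1 gene under 0.05 without adjustment. The medians were -0.01 for 6 distal convoluted tubule, -0.13 for 7 podocyte, -0.26 for 8 fibroblast and 0.17 for 10 macrophage markers. Of these lists, genes under 0.05 without adjustment numbered 0, 0, 2 and 1, all of them higher in Pkd2-miR-214-KO, namely Dcn, Lum and Mrc1.

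Kidney genes that depend on sex were read beside the proximal tubule genes because many of them are expressed there. Of 12 genes known to be higher in male mice 10 were below 0, with a median of -0.84, and of 9 genes known to be higher in female mice 7 were also below 0, with a median of -0.52. None of either list passed by edgeR. At p under 0.05 without adjustment the male-biased list held 2 lower genes, Slc7a13 and Hsd3b4, and 1 higher gene, Cyp7b1, and the female-biased list held 1 lower gene, Slc22a7. Cyp7b1, a hydroxylase of steroids, had a log2 fold of 0.52 ± 0.24 (p = 0.0318, adjusted p = 0.893, edgeR) and Hsd3b4, a steroid dehydrogenase gene with close paralogs, -1.51 ± 0.71 (p = 0.0328, adjusted p = 0.900, edgeR) in the authors' deposited table. The androgen-induced gene Kap had implied levels of 3410 CPM in Pkd2-miR-214-KO and 7943 CPM in Pkd2-KO, with a log2 fold of -1.22 ± 0.64 (adjusted p = 1, edgeR) in the authors' deposited table. Slc7a13, a male-biased carrier gene of the late proximal tubule, had -2.00 ± 0.78 (p = 0.0106, adjusted p = 0.604, edgeR), and Slc22a7, a female-biased carrier gene, -0.98 ± 0.47 (p = 0.0366, adjusted p = 0.941, edgeR) in the authors' deposited table. The implied level of Xist was 1040 CPM in Pkd2-miR-214-KO and 0.88 CPM in Pkd2-KO, and that of the Y-linked Ddx3y was 52.4 and 61.7 CPM. By Xist the sex make-up thus differed between the genotypes, although the sex of the mice was not labelled. The part of sex in the folds of the 9 genes cannot be told apart from that of genotype here and was not tested.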

How the data were processed

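RNA was measured in whole kidneys of 3 Pkd2-miR-214-KO and 3 Pkd2-KO mice. TopHat2 2.0.12, mm10 and edgeR are listed in the submitters' processing notes, and for counting, strand, filters and scaling the methods were not given in the sources used here. The authors deposited 1 table with, per the file headers, a log2 fold change, a mean log2 CPM, a likelihood ratio (a score) and p-values, plain and adjusted, per gene. Depth is unknown. The p-values equal the chi-square tail of the ratio (largest difference 6.25e-15), and the adjusted ones equal the Benjamini-Hochberg values (5.1e-14). No new test per gene was made, and the analysis used no values of single libraries. The header does not state the direction, which was read from Mir214.

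Approximate SEs, 95% intervals (1.96 SE) and group levels (the mean split between genotypes by the fold) were computed and tested on simulated data. Members and the 19 gene lists (241 of 242 genes matched) were chosen with earlier results of these data known. The named genes were the 9 members, up to 4 genes per list by smallest p, and Mir214, Pkd2 and Xist. Dab2, Clcn5, Pcx, Slc5a2, Slc34a1, Umod, Alb, Tat, Fga, Ttr, Fgg and Eif2s3y were added after their values were seen. So were the TATAAA and ACGTCA motifs, the miR-214-3p sites, G6pc's window and the median without the members that liver also expresses. Some genes and a motif under these rules are not reported here. Loci are GENCODE M21 (GRCm38, the assembly of mm10). Scripts ran under Python 3.11.15 with scipy 1.17.1, numpy 2.4.6, matplotlib 3.10.9 and pandas 2.3.3.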

Additional observations from a re-analysis of the deposited data

How the results depend on the processing

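The count of members past an adjusted p under 0.05 stayed at 0 when the adjustment covered only genes with a mean log2 CPM of at least 0 or of at least 5. It was also 0 with Holm's method, which is never less strict than the Benjamini-Hochberg one and so could not raise it. Without adjustment the count was 1, Gatm. The adjusted p of Gatm by edgeR was 0.915 as deposited and 1 under the other adjustments, against 0.0341 unadjusted. Subtracting the median fold of all genes (0) or of genes with a mean log2 CPM of at least 5 (0.01) turned no member's sign. It could turn none, since the member fold closest to 0 was -0.07, of Aqp1. The members' median ran from -0.43 to -0.34 with each member left out in turn and was -0.44 without Hnf4a, Fbp1 and Pck1, a setting chosen after seeing the data that drops the 1 member above 0. All 57 list medians and 19 list counts recomputed under the centring and low-level alternatives moved by less than the list's median SE or by less than 1.5 times. For the centring alternatives this had to be so, because the shifts are far smaller than any list's median SE. The low-level alternative dropped genes only from the brush border, red cell, male-biased and female-biased lists, so it could move no other median. Their medians went from -0.29 to -0.30, from 1.66 to 1.45, from -0.84 to -1.03 and from -0.52 to -0.51. No motif count among the members changed on the plus strand alone. For the HNF4 cores none could, since 0 windows held them on either strand. The count of members with a miR-214-3p site stayed at 1 with bases 2 to 8 only, because the Lrp2 site is of that kind. Leaving out each mouse was not run, since values per library were not analysed here. No paired analysis was possible because the labels pair no mice and the folds come from 1 table of the authors' comparison. Intervals rest on the approximate SE, which says little for genes of low count.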

Other observations

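Of 14 genes of tubular injury and dedifferentiation 8 were above 0 and 6 below, with a median log2 fold of 0.13 and 0 past the threshold by edgeR, and without adjustment 1 was lower and 1 higher at p under 0.05. Havcr1, the injury receptor of proximal tubule cells, had implied levels of 43.4 CPM in Pkd2-miR-214-KO and 98.5 CPM in Pkd2-KO, with a log2 fold of -1.18 ± 0.43 (adjusted p = 0.463, edgeR) in the authors' deposited table. The keratin gene Krt18 had 0.65 ± 0.32 (adjusted p = 1, edgeR), and Lcn2, made mainly by distal segments after injury, had 0.75 ± 0.39 (adjusted p = 1, edgeR) in the authors' deposited table. Cd24a, a surface antigen of immature tubule cells, had 0.44 ± 0.28 (adjusted p = 1, edgeR) in the authors' deposited table. No test set this list against the 9 proximal tubule genes.

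The SE was large for this group of genes, though not for it alone. The median SE was 0.38 for the 9 genes, against 0.22 for all genes with a mean log2 CPM of at least 5. It was 0.34 for the carriers, 0.34 for thick ascending limb markers, 0.29 for the brush border list and 0.23 for the endocytic partners. For 8 of the 9 genes the SE exceeded that of most genes within 0.5 of the same mean log2 CPM. Besides Miox and Gatm, given above, it stood at the 92.0 percentile for Lrp2, 89.2 for Cubn, 80.2 for Hnf4a, 62.6 for Aqp1, 94.5 for Fbp1 and 85.0 for Pck1. Dpep1 was the exception at the 31.2 percentile. The genes compared numbered from 20 for Pck1 and 75 for Lrp2 to 1845 for Dpep1, so the percentile of Pck1 is coarse. Of the 9 genes 5 lie on chromosome 2, which holds 7.79% of the 19060 genes matched to the annotation, and the median log2 fold of the 1484 genes on that chromosome was 0.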
